A study of Homo sapiens with 6 samples.

Results

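The genes described here are the ligands, receptors and effectors of Wnt signalling in U87, an established human glioblastoma cell line. They were taken by gene symbol from the deposited table and comprise the WNT ligands, the Frizzled (FZD) receptors, the co-receptors LRP5, LRP6, ROR1 and ROR2, the DKK and SFRP inhibitors, PORCN, WLS, RNF43, ZNRF3, APC, AXIN1, AXIN2, CTNNB1 and the TCF/LEF factors. The rule used no measured value and gave 53 genes of 60612 in the table. RNA was sequenced from 3 control libraries (NC), made from U87 cells given a scramble shRNA, and from 3 shPRMT6 libraries, made from U87 cells given an shRNA against PRMT6, a protein arginine methyltransferase. Both groups received their shRNA by lentivirus with polybrene and grew in DMEM with fetal bovine serum. The study's methods describe selection of the glioma cells given shPRMT6 lentivirus with puromycin to obtain stable lines. The study's methods describe the libraries as independent replicates. The sources used here do not say which PRMT6 shRNA the sequenced cells carried, or whether the 3 shPRMT6 libraries carried the same one. Effects of an shRNA on other RNAs cannot be told apart here from loss of PRMT6. A single cell line models neither the other cells of a tumour nor differences between patients.

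Wnt proteins are secreted ligands that PORCN modifies with a fatty acid and WLS carries to the cell surface. When a ligand binds a Frizzled receptor together with LRP5 or LRP6, the destruction complex of APC, AXIN and kinases stops marking β-catenin (CTNNB1) for degradation, and β-catenin then acts with TCF/LEF factors on target genes in the nucleus. Other ligands, with WNT5A as the best known, signal largely without β-catenin, often through ROR1 or ROR2. In glioblastoma the pathway is mostly studied for stem-like growth and for invasion.

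The counts per library summed to between 56388161 and 75887696 in NC and between 61805330 and 67630740 in shPRMT6. PRMT6 itself had 449 to 606 counts in the NC libraries and 227 to 355 in the shPRMT6 libraries, a log2 fold change of -0.87 (SE 0.187, adjusted p = 0.0225 edgeR quasi-likelihood test, Benjamini-Hochberg adjusted). Without NC replicate 1, shPRMT6 replicate 1 or shPRMT6 replicate 2 this change was -0.77, -0.73 and -0.89, with adjusted p of 0.0613, 0.0588 and 0.0713 by the same edgeR test. Among 10 glioma and glial markers, VIM, CD44, TNC, EGFR and NES were abundant. OLIG2 had 120 to 200 counts, GFAP had 11 to 60, SOX2 had 0 to 26 and S100B had 0 in every library. Of the 9 tested, CHI3L1 was higher in shPRMT6 (log2 fold change 1.62), TNC (-0.35) and EGFR (-0.46) were lower, and 6 did not pass. Of 13 markers of other cell types CD3E, KRT5 and MOG were at 0 in every library, PTPRC and CDH5 had at most 4 counts, the neuronal genes SNAP25 and SYT1 had 1082 to 1508 and 325 to 670 counts, and the summed level of the list, mostly CD68, ran from 64.4 to 106 FPKM in NC and from 63.1 to 130 FPKM in shPRMT6. Of the 8 tested in that list CDH1 was lower (-2.18, at 4 to 58 counts) and the other 7 did not pass, among them PECAM1 at 0.70 without overlap of the groups. Thus 33.3% of the tested glioma and glial markers and 12.5% of the tested markers of other cell types passed, where 18.6% of all 18106 tested genes did. The part of these markers in the results on Wnt genes was not tested. The deposited counts pile up at multiples of 4, with 7927 values of exactly 4 against 2458 values of 3 and 1437 of 5, so a count need not stand for 1 read and counting intervals would not apply to low counts.

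PRMT6 knockdown was compared with control across all genes to ask which RNAs differ, and the Wnt genes were read from that comparison. In shPRMT6 cells WNT5B, WNT7B, WLS and ROR1 RNA were higher, and WNT5A, WNT10B, FZD1 and LEF1 RNA were lower. The 8 genes spread over ligands, export, receptors and nuclear factors, in both directions. FZD1 was at 41.4% of its NC level and ROR1 at 232%. CTNNB1, LRP6, AXIN1, AXIN2 and ZNRF3 did not pass the threshold. Of the 53 Wnt genes, 32 passed the filter on low counts and were tested, and 21 did not, none of these with more than 28 counts in any library. Among the 32 tested, 8 passed an adjusted p of 0.05, or 25%, where 18.6% of all 18106 tested genes did. 4 were higher, against 9.51% of all tested genes, and 4 were lower, against 9.06%. The values of the NC and shPRMT6 libraries did not overlap for 13 of the 32, where 40.2% of all tested genes had no overlap. The median log2 fold change was 0.02 over the 32 genes and -0.01 over all tested genes. In sequencing of whole cultures, fewer cells that express a gene and less of its RNA per cell cannot be told apart. The count of 4 higher genes was 2 without any 1 library other than NC replicate 2, and the count of 4 lower genes was 2 without shPRMT6 replicate 1 or shPRMT6 replicate 2. Over all genes, the 1721 higher genes became 898 to 1340 in those fits, and the 1641 lower genes became 919 and 857.

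**Figure D1:**
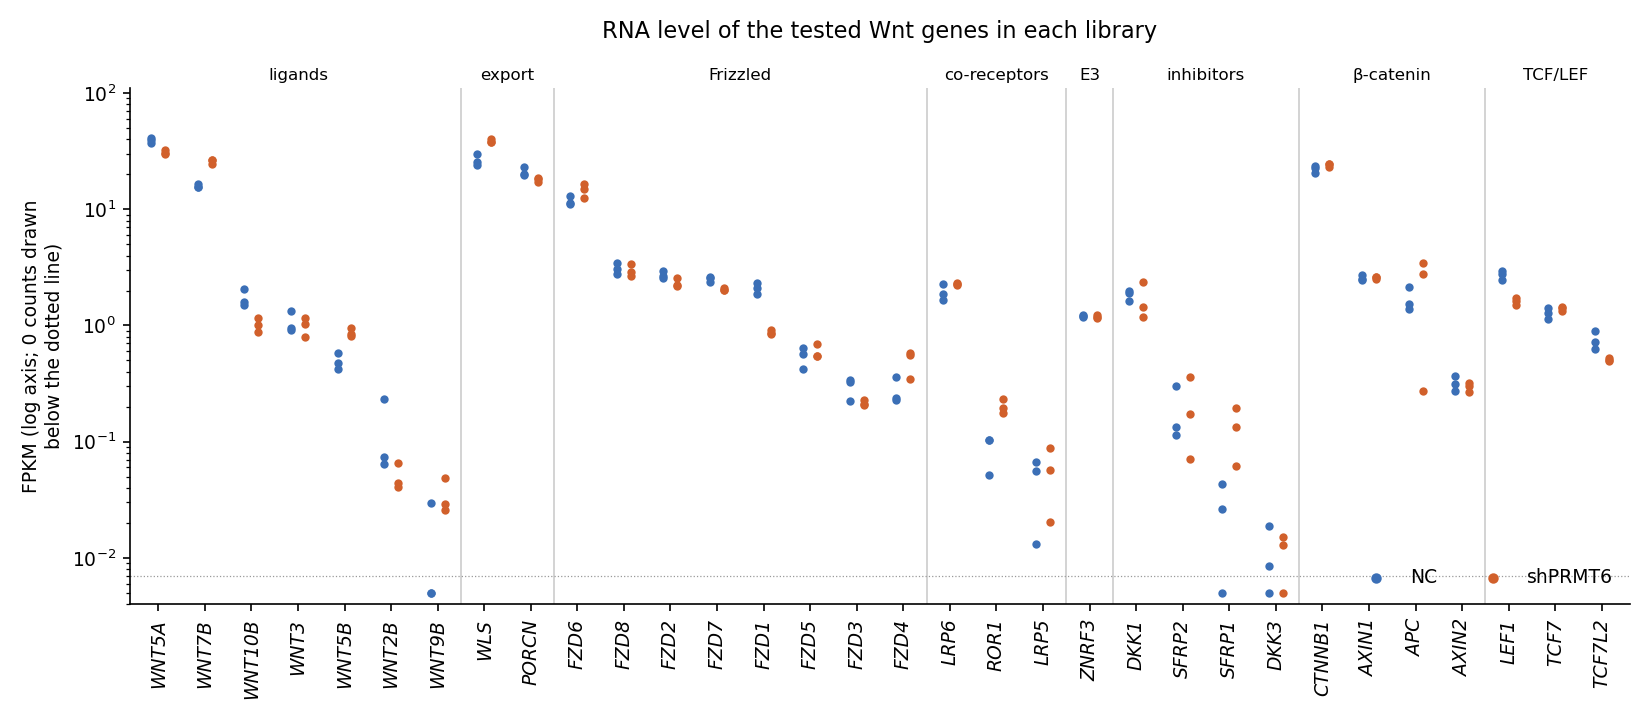
RNA level in FPKM (fragments scaled to transcript length and library size, log axis) of the 32 tested Wnt genes in 3 NC and 3 shPRMT6 libraries, ordered by role and by the NC mean (E3, the receptor-removing ligases). Each point is 1 library, and a library with 0 counts is drawn below the dotted line. WNT5A, WLS, CTNNB1, PORCN and WNT7B lie highest, and the WNT7B points of shPRMT6 lie above those of NC while the FZD1 and LEF1 points lie below.

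Of the 19 WNT ligands, 7 were tested. Ordered by NC level per transcript length, WNT5A stood first at 39.3 ± 2.09 FPKM (SD, n = 3), followed by WNT7B at 15.9 ± 0.610 FPKM, WNT10B at 1.72 ± 0.298 FPKM, WNT3 at 1.07 ± 0.233 FPKM, WNT5B at 0.495 ± 0.0814 FPKM and WNT2B at 0.124 ± 0.0963 FPKM. The NC libraries of neighbours in that order did not overlap down to WNT2B, and below it WNT16, WNT2, WNT9B, WNT9A and WNT7A, all at or under 0.0135 FPKM on average, could not be ranked. WNT1, WNT3A, WNT4, WNT8A, WNT8B, WNT10A and WNT11 had 0 counts in every library. A limit of 3 counts per library corresponds to 0.0395 to 0.0532 CPM (counts scaled to library size), which covers counting error only and takes each count as a read. The WNT RNA of these cells was thus mostly that of WNT5A and WNT7B, with the canonical ligands WNT1 and WNT3A at 0.

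WNT5A (ENSG00000114251, chromosome 3, 55465715 to 55490539, minus strand of GRCh38) encodes the best studied ligand of signalling without β-catenin. It had 18454, 27629 and 21460 counts in NC replicates 1, 2 and 3, and 16627, 16405 and 19189 in the shPRMT6 replicates. Scaled to library size these were 330, 363 and 344 CPM against 261, 267 and 283 CPM. Every shPRMT6 library lay below every NC library, and the lower level was 78.2% of NC. Its log2 fold change came to -0.35 (SE 0.0612, adjusted p = 0.0106 edgeR quasi-likelihood test, Benjamini-Hochberg adjusted). Without shPRMT6 replicate 1 or replicate 2 it was -0.33 and -0.34, and the adjusted p of the same edgeR test was 0.0516 and 0.0509, above the threshold.

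WNT7B (ENSG00000188064, chromosome 22, 45920362 to 45977129, minus strand) encodes a ligand known for β-catenin signalling in blood vessel growth of the brain. Its counts were 5347, 7077 and 6185 in NC and 10101, 9117 and 10653 in shPRMT6, or 95.6, 93.1 and 99.1 CPM against 159, 148 and 157 CPM. The groups lay far apart compared with their spread, at 95.9 ± 3.02 CPM in NC and 155 ± 5.71 CPM in shPRMT6 (SD, n = 3). WNT7B RNA was 161% of NC, with a log2 fold change of 0.69 (SE 0.0586, adjusted p = 0.00118 by the edgeR test with Benjamini-Hochberg adjustment). The call held in each of the 16 alternatives run, 6 of which left out 1 library. WNT5A and WNT7B therefore moved in opposite directions. The ratio of WNT5A to WNT7B FPKM was 2.37, 2.68 and 2.38 in the NC libraries and 1.13, 1.24 and 1.24 in the shPRMT6 libraries, a description chosen after both results were seen.

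WNT5B, the closest relative of WNT5A (ENSG00000111186, chromosome 12, 1529891 to 1647243, plus strand), was far less abundant. It had 122, 225 and 151 counts in NC and 263, 261 and 328 in shPRMT6, or 2.18, 2.96 and 2.42 CPM against 4.13, 4.24 and 4.84 CPM. All shPRMT6 libraries lay above all NC libraries, so that WNT5B and WNT5A went in opposite directions. For WNT5B the log2 fold change came to 0.80 (SE 0.176, adjusted p = 0.0241 edgeR quasi-likelihood test, Benjamini-Hochberg adjusted). WNT5B lost its call without NC replicate 1 (0.71), NC replicate 3 (0.77), shPRMT6 replicate 1 (0.85), shPRMT6 replicate 2 (0.83) or shPRMT6 replicate 3 (0.73), with adjusted p of 0.0606 to 0.0842 in the same edgeR test.

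WNT10B, a ligand of β-catenin signalling (ENSG00000169884, chromosome 12, 48965340 to 48971763, minus strand), had 278, 356 and 394 counts in NC and 174, 223 and 211 in shPRMT6. These were 4.97, 4.68 and 6.31 CPM against 2.73, 3.62 and 3.12 CPM, again without overlap. The shPRMT6 mean was 59.3% of NC, with a log2 fold change of -0.75 (SE 0.186, adjusted p = 0.0357 by the edgeR test with Benjamini-Hochberg adjustment). WNT10B was past the threshold in 8 of 16 alternatives. Without NC replicate 1, NC replicate 3, shPRMT6 replicate 1, shPRMT6 replicate 2 or shPRMT6 replicate 3 its log2 fold change was -0.80, -0.61, -0.66, -0.86 and -0.74, and the adjusted p of the same edgeR test lay between 0.0619 and 0.107.

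The other 3 tested ligands did not pass. WNT3, a ligand of β-catenin signalling, had 301 to 382 counts in NC and 246 to 369 in shPRMT6, with a log2 fold change of -0.11. WNT2B had 196, 83 and 60 counts in NC and 37 to 66 in shPRMT6, with a log2 fold change of -1.32 (SE 0.557, adjusted p = 0.157 by the edgeR test with Benjamini-Hochberg adjustment), and NC replicate 1 stood above the other NC libraries. Without that library the WNT2B value was -0.47. Exons of WNT2B overlap those of ST7L (429 to 582 counts) on the opposite strand. The use of strand in counting is not given in the sources used here. WNT9B had 0, 0 and 16 counts in NC and 16, 25 and 15 in shPRMT6, with a log2 fold change of 1.77 (SE 1.39). It passed only in the edgeR fit without NC replicate 3, where NC was left with 0 counts and the Benjamini-Hochberg adjusted p was 0.0454 (range over its alternatives 0.0454 to 0.662). WNT2, WNT6, WNT7A, WNT9A and WNT16 were not tested and had at most 11 counts in any library.

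Of the 2 genes of ligand processing, WLS was higher in shPRMT6. WLS (ENSG00000116729, chromosome 1, 68098473 to 68233120, minus strand) had 8960, 9676 and 8318 counts in NC and 12655, 12224 and 14328 in shPRMT6. The CPM values were 160, 127 and 133 in NC and 199, 199 and 212 in shPRMT6, with NC replicate 1 nearest to the shPRMT6 libraries. WLS RNA was 145% of NC, a log2 fold change of 0.53 (SE 0.0958, adjusted p = 0.0122 edgeR quasi-likelihood test, Benjamini-Hochberg adjusted). Without NC replicate 3 the value was 0.50 and the adjusted p of the same edgeR test 0.0505. Exons of WLS overlap the antisense gene GNG12-AS1, which had only 32 to 72 counts in any library. PORCN, the acyltransferase that modifies the ligands, had 4044, 5386 and 5088 counts in NC and 4187, 3805 and 4410 in shPRMT6. Its level in FPKM was lower in every shPRMT6 library (17.3 to 18.5) than in every NC library (19.8 to 23.0), but the log2 fold change of -0.22 did not pass (SE 0.0758, adjusted p = 0.0933 by the edgeR test with Benjamini-Hochberg adjustment).

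Among the 10 Frizzled receptors, 8 were tested and FZD1 alone passed, or 12.5%, where 18.6% of all tested genes did. In NC the order by FPKM was FZD6 (11.8 ± 1.12 FPKM, SD, n = 3), FZD8 (3.09 ± 0.326 FPKM), FZD2 (2.73 ± 0.205 FPKM), FZD7 (2.52 ± 0.118 FPKM), FZD1 (2.10 ± 0.218 FPKM), FZD5 (0.543 ± 0.114 FPKM), FZD3 (0.296 ± 0.0641 FPKM) and FZD4 (0.275 ± 0.0725 FPKM). The NC values of FZD8 and FZD2, of FZD2 and FZD7, and of FZD3 and FZD4 overlapped. FZD9 had 0 counts in every library and FZD10 at most 8. FZD6 was thus the main Frizzled RNA in both groups.

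FZD1 (ENSG00000157240, chromosome 7, 91264364 to 91271326, plus strand) had 870, 1304 and 1173 counts in NC and 436, 435 and 502 in shPRMT6. After scaling these were 15.6, 17.1 and 18.8 CPM against 6.85, 7.07 and 7.41 CPM. The lowest NC library still had over 2 times the level of any shPRMT6 library. Knockdown cells thus had a log2 fold change of -1.27 (SE 0.110, adjusted p = 0.00122 edgeR quasi-likelihood test, Benjamini-Hochberg adjusted); it passed in each of the 16 alternatives run. FZD1 shares 0.102% of its 75-base stretches with FZD2, whose own log2 fold change was -0.24.

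FZD6, a receptor mostly described in planar polarity, had 55.3, 53.6 and 62.8 CPM in NC and 72.3, 79.0 and 59.3 CPM in shPRMT6. shPRMT6 replicate 3 lay within the range of NC, and the log2 fold change of 0.29 (SE 0.122) had an adjusted p of 0.150 by the edgeR test with Benjamini-Hochberg adjustment. FZD7 was 2.39 to 2.60 FPKM in NC and 2.02 to 2.09 FPKM in shPRMT6, without overlap, and its log2 fold change of -0.31 had an adjusted p of 0.0701 in the same edgeR test. FZD4 had 113, 240 and 130 counts in NC and 312, 188 and 341 in shPRMT6. Its log2 fold change of 0.84 (SE 0.277) did not pass in edgeR's test with Benjamini-Hochberg adjustment (adjusted p = 0.0855). Exons of FZD4 overlap PRSS23 on the opposite strand, a gene with 3747 to 4715 counts in NC and 5654 to 6677 in shPRMT6 and a log2 fold change of 0.59, and the part of PRSS23 reads in the FZD4 counts was not tested. FZD3 (-0.47), FZD5 (0.12) and FZD8 (-0.07) also did not pass.

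**Figure D2:**
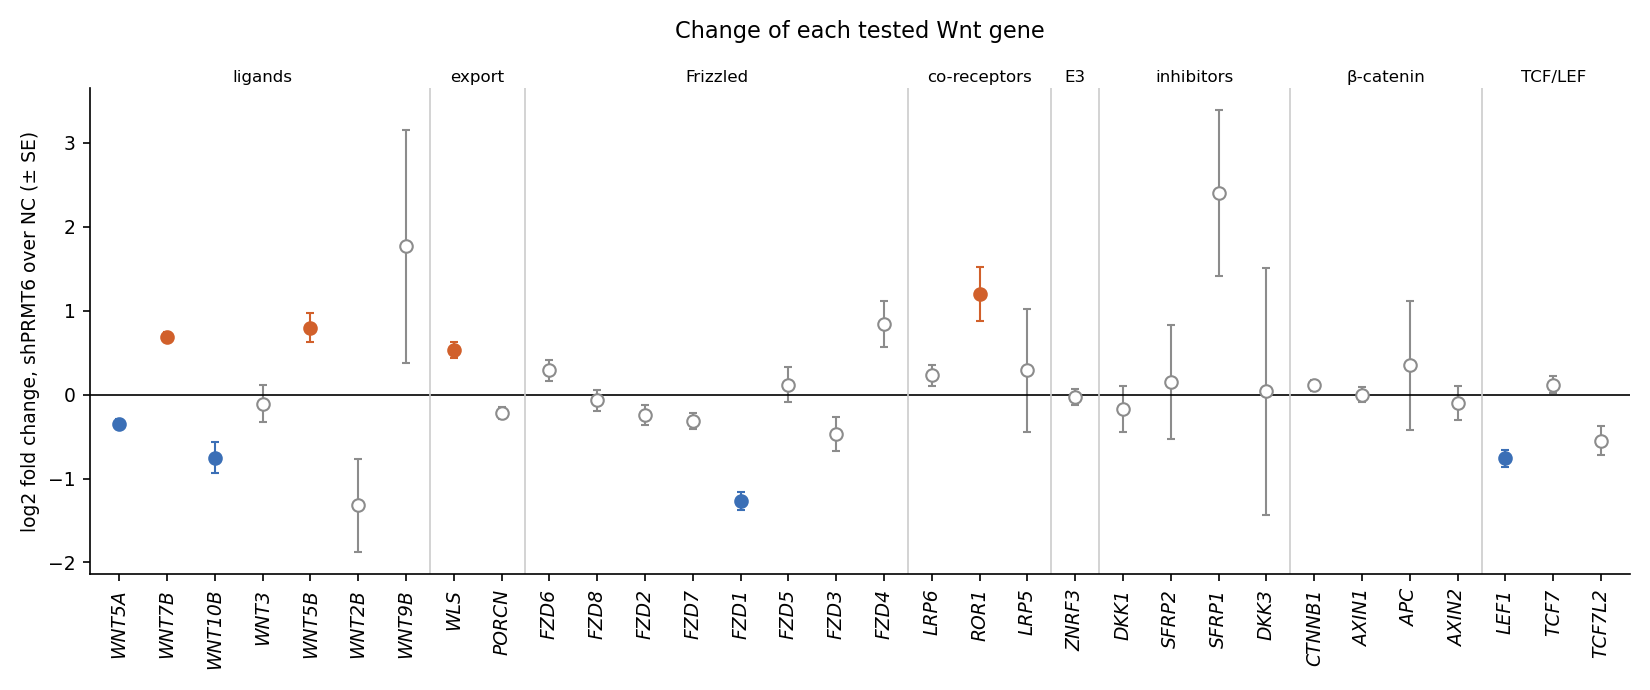
Log2 fold change of shPRMT6 over NC (linear axis) of the 32 tested Wnt genes, ordered as by level within each role, with bars for the standard error of the edgeR fit. Filled points passed an adjusted p of 0.05 (orange higher, blue lower in shPRMT6) and open points did not, among them SFRP1 at 2.40 with an SE of 0.989 and CTNNB1 at 0.11 with an SE of 0.0702.

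Of the 4 co-receptors, LRP6 was the most abundant at 1.92 ± 0.314 FPKM in NC and 2.27 ± 0.0695 FPKM in shPRMT6 (SD, n = 3). LRP6 (chromosome 12, 12116025 to 12267012, minus strand), which pairs with Frizzled receptors in β-catenin signalling, had 1150, 2124 and 1408 counts in NC and 1761, 1772 and 1830 in shPRMT6. After scaling, NC replicate 2 (27.9 CPM) lay within the range of shPRMT6 (27 to 28.8 CPM). The log2 fold change came to 0.23 (SE 0.126, adjusted p = 0.256 edgeR quasi-likelihood test, Benjamini-Hochberg adjusted). Without NC replicate 2 it was 0.37 and passed, with an adjusted p of 0.0449 in the same edgeR test. LRP5 (chromosome 11, 68312609 to 68449275, plus strand), its closest relative, had 28, 8 and 26 counts in NC and 27, 10 and 44 in shPRMT6, too few to order the groups, with a log2 fold change of 0.29 and an SE of 0.735.

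ROR1 (ENSG00000185483, chromosome 1, 63774022 to 64181498, plus strand), a receptor tyrosine kinase-like protein that binds WNT5A, was near the bottom of the measured range. It had 24, 63 and 52 counts in NC and 98, 116 and 96 in shPRMT6, or 0.429, 0.829 and 0.833 CPM against 1.54, 1.88 and 1.42 CPM. All shPRMT6 libraries lay above all NC libraries. This gave a log2 fold change of 1.20 (SE 0.323, adjusted p = 0.0464 by the edgeR test with Benjamini-Hochberg adjustment). ROR1 did not pass in any of the 6 fits without 1 library, where it ranged from 0.95 without NC replicate 1 to 1.35 without NC replicate 2 or NC replicate 3, with values of 1.24, 1.08 and 1.29 without shPRMT6 replicates 1, 2 and 3 and adjusted p between 0.0676 and 0.141 in edgeR. ROR2 had at most 4 counts in any library.

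ZNRF3 and RNF43 are membrane ubiquitin ligases that remove Frizzled receptors from the surface and are themselves induced by β-catenin. ZNRF3 (chromosome 22, 28883592 to 29057487, plus strand) had 562, 784 and 611 counts in NC and 619, 626 and 653 in shPRMT6. After scaling it was at 10.0 ± 0.261 CPM in NC and 9.85 ± 0.286 CPM in shPRMT6 (SD, n = 3), with a log2 fold change of -0.03 (SE 0.0947). RNF43 had 0 to 15 counts and was not tested, and 55.5% of its 75-base stretches are shared with AC004687.2 or SUPT4H1.

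None of the 4 tested secreted inhibitors passed in edgeR. 1 of the 4 had an unadjusted p under 0.05 in that test, where 5905 of all 18106 tested genes did. DKK1 (chromosome 10, 52314296 to 52318042, plus strand), which blocks LRP5 and LRP6, was the most abundant. It had 299, 383 and 269 counts in NC and 198, 232 and 419 in shPRMT6, or 5.35, 5.04 and 4.31 CPM against 3.11, 3.77 and 6.19 CPM. The NC values lay between those of shPRMT6 replicates 1 and 2 and that of shPRMT6 replicate 3, so the direction was not shared by the shPRMT6 libraries. Across the libraries the log2 fold change came to -0.17 (SE 0.272), and it was 0.02 without shPRMT6 replicate 1. SFRP1, which binds Wnt ligands outside the cell, had 0, 12 and 16 counts in NC and 23, 47 and 75 in shPRMT6. The groups did not overlap, but at these counts the log2 fold change of 2.40 had an SE of 0.989 and an adjusted p of 0.149 by the edgeR test with Benjamini-Hochberg adjustment. SFRP2 had 12 to 53 counts and DKK3 0 to 16, with log2 fold changes of 0.15 and 0.04. DKK4 and SFRP5 had 0 counts in every library, DKK2 at most 4 and SFRP4 at most 16. The filter on low counts left these 4 genes out of the test.

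None of the 4 genes of the destruction complex and β-catenin passed in edgeR. None had an unadjusted p under 0.05 in that test, where 5905 of all 18106 tested genes did. CTNNB1 (chromosome 3, 41194741 to 41260096, plus strand) encodes β-catenin, and its RNA was 335, 288 and 311 CPM in NC and 343, 323 and 342 CPM in shPRMT6. The groups overlapped, with a log2 fold change of 0.11 (SE 0.0702, adjusted p = 0.335 edgeR quasi-likelihood test, Benjamini-Hochberg adjusted). β-catenin is controlled mainly by protein breakdown, which RNA counts do not measure. AXIN1, a scaffold of the complex, had 1352 to 1703 counts in NC and 1428 to 1517 in shPRMT6, and its shPRMT6 mean was 99.7% of NC. AXIN2 (chromosome 17, 65528563 to 65561647, minus strand) is a scaffold and also a widely used readout of β-catenin activity. Its counts were 110, 175 and 106 in NC and 106, 117 and 135 in shPRMT6, or 1.97, 2.30 and 1.70 CPM against 1.66, 1.90 and 1.99 CPM. Its values overlapped, with a log2 fold change of -0.10 (SE 0.201, adjusted p = 0.774 by the edgeR test with Benjamini-Hochberg adjustment). AXIN2 shares 23.5% of its 75-base stretches with AC004805.1, which had 0 counts in every library.

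APC (chromosome 5, 112707498 to 112846239, plus strand), the large scaffold of the complex, varied more between replicates than any other Wnt gene with a mean of at least 1000 counts. It had 1155, 2430 and 1386 counts in NC and 3219, 248 and 2767 in shPRMT6, or 20.7, 32.0 and 22.2 CPM against 50.6, 4.03 and 40.9 CPM. shPRMT6 replicate 2 lay 12.5 times below replicate 1 and 10.1 times below replicate 3 of the same group, under all NC libraries, while the other shPRMT6 libraries lay above all of them. APC's log2 fold change of 0.35 had an SE of 0.767 (adjusted p = 0.799 by the edgeR test with Benjamini-Hochberg adjustment). Over all genes with a mean of at least 1000 counts, 237 of 8281 (2.86%) differed by more than 3 times between replicates of a group. APC was the only Wnt gene among them, and the next largest ratio, that of LRP6, was 1.36. The cause of these jumps was not tested.

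**Figure D3:**
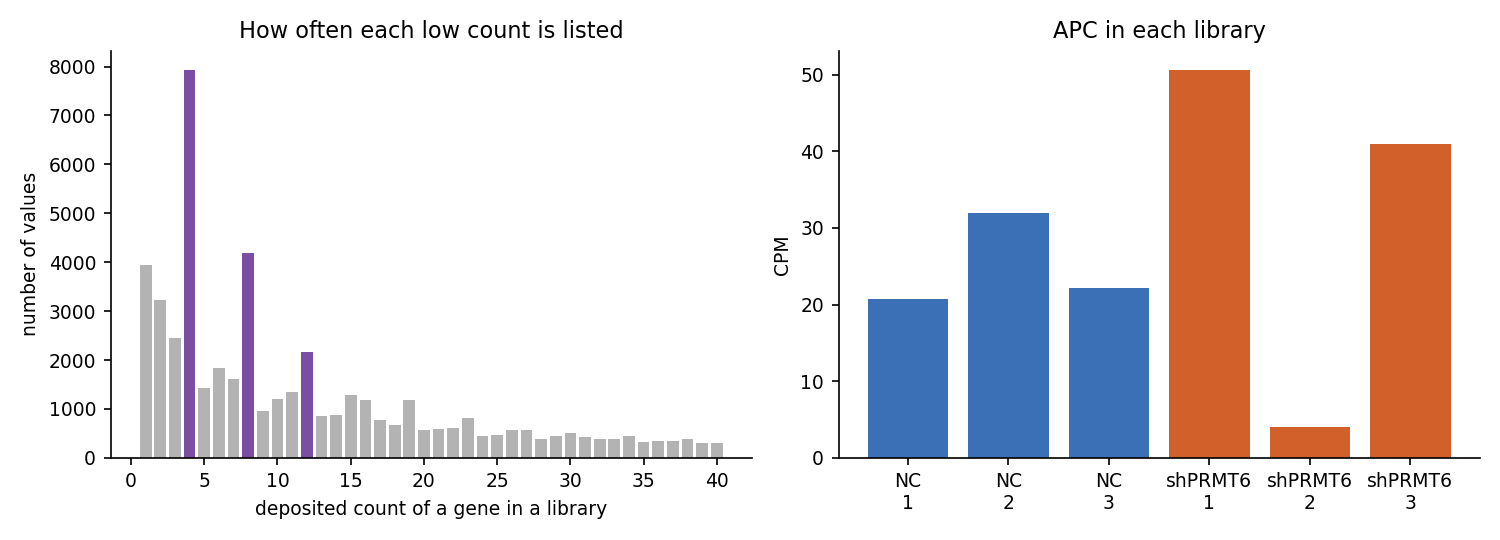
Left, how many of the deposited values of all genes and libraries equal each count from 1 to 40, with 4, 8 and 12 in purple. Right, CPM of APC in each library, from 4.03 in shPRMT6 replicate 2 to 50.6 in shPRMT6 replicate 1; both vertical axes start at 0, and each bar on the right is 1 library.

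The TCF/LEF factors bring β-catenin to DNA, and LEF1 is also a known target of the pathway. LEF1 (ENSG00000138795, chromosome 4, 108047545 to 108168956, minus strand) was the most abundant of the 4 in NC at 2.73 ± 0.234 FPKM, above TCF7 (1.28 ± 0.135 FPKM), TCF7L2 (0.747 ± 0.142 FPKM) and TCF7L1 (0.0313 ± 0.0317 FPKM, SD, n = 3), with no overlap between neighbours. LEF1 had 897, 1340 and 1165 counts in NC and 613, 632 and 746 in shPRMT6, or 16, 17.6 and 18.7 CPM against 9.63, 10.3 and 11 CPM. Every shPRMT6 library lay below every NC library, and the mean fell to 59.1% of NC. LEF1 thus had a log2 fold change of -0.76 (SE 0.105, adjusted p = 0.00521 edgeR quasi-likelihood test, Benjamini-Hochberg adjusted). The call held without any 1 library. Exons of LEF1 overlap the antisense gene LEF1-AS1, which had 8 to 33 counts in any library. TCF7L2 was 0.903, 0.715 and 0.624 FPKM in NC and 0.527, 0.496 and 0.500 FPKM in shPRMT6, without overlap, but its log2 fold change of -0.55 (SE 0.174) missed the threshold with an adjusted p of 0.0741 in the same edgeR test. TCF7 (872 to 1090 counts) was at 0.12. Its exons overlap those of SKP1 (9579 to 13425 counts) on the opposite strand, and the part of SKP1 reads in the TCF7 counts was not tested. The summed FPKM of the TCF/LEF genes was 4.67 to 5.00 in NC and 3.47 to 3.57 in shPRMT6.

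TCF/LEF factors bind a short DNA core, searched here as CTTTGA or CTTTGT on both strands in the RefSeq promoter windows of GRCh38.p14, which run from 250 bases before to 50 after a start. Of the 53 genes, 38 had 48 windows. 10 of the 48 windows (20.8%) held the core, where 26.2% of all 35116 windows of that length did. Among the called genes with a window, FZD1 held it and WNT5A, WNT5B, WLS, ROR1 and LEF1 did not. DKK1 had the most matches of the windows of Wnt genes, 3 before its start. The bases before the start are shown for FZD1, which was lower and holds a match, for ROR1, which was higher and holds none, and for DKK1, which was not called and holds 3. Lower case marks the sequence, 5′ to 3′ on the strand of the gene, and capitals the matched core (TCAAAG is CTTTGA on the other strand). The FZD1 stretch ends where its first exon begins in GENCODE 29.
FZD1 (chr7:91264183-91264363, plus strand): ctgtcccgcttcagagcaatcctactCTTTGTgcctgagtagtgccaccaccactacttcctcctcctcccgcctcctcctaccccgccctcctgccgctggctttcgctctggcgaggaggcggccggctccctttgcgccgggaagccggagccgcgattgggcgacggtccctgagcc
ROR1 (chr1:63773767-63774016, plus strand): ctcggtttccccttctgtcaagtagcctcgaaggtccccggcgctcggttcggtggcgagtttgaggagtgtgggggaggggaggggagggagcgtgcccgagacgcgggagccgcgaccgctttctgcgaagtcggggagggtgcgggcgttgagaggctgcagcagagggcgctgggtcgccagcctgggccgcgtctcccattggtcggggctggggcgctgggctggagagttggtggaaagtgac
DKK1 (chr10:52314031-52314280, plus strand): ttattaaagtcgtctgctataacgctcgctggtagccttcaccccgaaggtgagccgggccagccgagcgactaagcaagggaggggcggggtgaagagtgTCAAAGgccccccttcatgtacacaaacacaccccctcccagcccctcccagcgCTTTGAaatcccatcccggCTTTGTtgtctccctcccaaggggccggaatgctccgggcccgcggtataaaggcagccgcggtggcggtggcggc
Counted from the RefSeq start, the FZD1 match begins at base -224 and those of DKK1 begin at bases -149, -95 and -76. A match of 6 bases is a description of these letters, and no binding was measured in these data.

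A further 65 genes of the pathway that are not among the 53 were read from the same fit. 49 were tested, 4 were higher, 6 were lower and 39 did not pass, so that 20.4% were called, close to the 18.6% of all tested genes, with a median log2 fold change of -0.05. The higher genes were GSK3B (0.30) and BTRC (0.28), a kinase and a ubiquitin ligase adaptor of β-catenin breakdown, CTNNBIP1 (0.70), which keeps β-catenin from TCF factors, and DAAM1 (0.58), which links Dishevelled to the actin skeleton. The lower genes were KREMEN2 (-1.88), a receptor of DKK1, CSNK1A1 (-0.50), the kinase that primes β-catenin, TNKS (-0.38), which marks AXIN for breakdown, and the polarity genes CELSR2 (-1.40), CELSR3 (-0.69) and SCRIB (-0.28). KREMEN2 had 47, 48 and 47 counts in NC and 10, 20 and 8 in shPRMT6 (SE 0.479, adjusted p = 0.0392 by the edgeR test with Benjamini-Hochberg adjustment). CELSR2 had 44, 77 and 82 counts in NC and 21, 24 and 31 in shPRMT6 (SE 0.327, adjusted p = 0.0302 in the same edgeR test). Both rest on low counts without overlap. The 6 lower genes became 3 without any 1 NC library, 1 without shPRMT6 replicate 1 or 3, and 2 without shPRMT6 replicate 2. The 4 higher genes became 3 without NC replicate 2, 2 without NC replicate 3 and 1 without any other library. Over all genes these fits called 898 to 1661 higher and 857 to 1522 lower, against 1721 and 1641 with every library. The Dishevelled genes DVL1, DVL2 and DVL3 did not pass, with log2 fold changes of -0.09, -0.09 and 0.08.

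Of 15 textbook targets of β-catenin outside the 53 genes, 10 were tested, 3 were higher and 1 was lower, or 40% called where 18.6% of all tested genes were. The list is small and was chosen with earlier results of these data known. It leaves out targets among the 53 genes, such as AXIN2 and ZNRF3, which were not called, and LEF1, which was lower. BAMBI, a decoy receptor of TGF-β signalling, had 69, 50 and 110 counts in NC and 283, 325 and 364 in shPRMT6, a log2 fold change of 2.05 (SE 0.355, adjusted p = 0.0107 by the edgeR test with Benjamini-Hochberg adjustment). EPHB2, an ephrin receptor, had 1311, 2450 and 1720 counts in NC and 4583, 4740 and 5132 in shPRMT6, a log2 fold change of 1.43 (SE 0.122, adjusted p = 0.00118 in the same edgeR test). JAG1, a Notch ligand, was higher with a log2 fold change of 0.96. CCND1, the cyclin of early cell cycle entry, went the other way, at 187, 209 and 199 FPKM in NC and 92.0, 92.4 and 99.6 FPKM in shPRMT6. This log2 fold change of -1.07 (SE 0.0603, adjusted p = 0.000357 in the same edgeR test) passed. The called targets therefore did not share a direction, and each of these genes also answers to other pathways. SP5, among the most direct targets, had 34, 37 and 66 counts in NC and 26, 19 and 21 in shPRMT6, with a log2 fold change of -1.06 (SE 0.417) and an adjusted p of 0.133 in edgeR. MYC had a log2 fold change of -0.44 with an SE of 0.936, and NC replicate 2 (1127 counts) and shPRMT6 replicate 1 (563) stood apart from the others (5010 to 6426). The feedback genes NKD1 (0 to 4 counts), NOTUM (7, 24 and 16 in NC, 0, 0 and 8 in shPRMT6) and LGR5 (0 to 4) were not tested. The counts of 3 higher and 1 lower targets held without any 1 library.

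**Figure D4:**
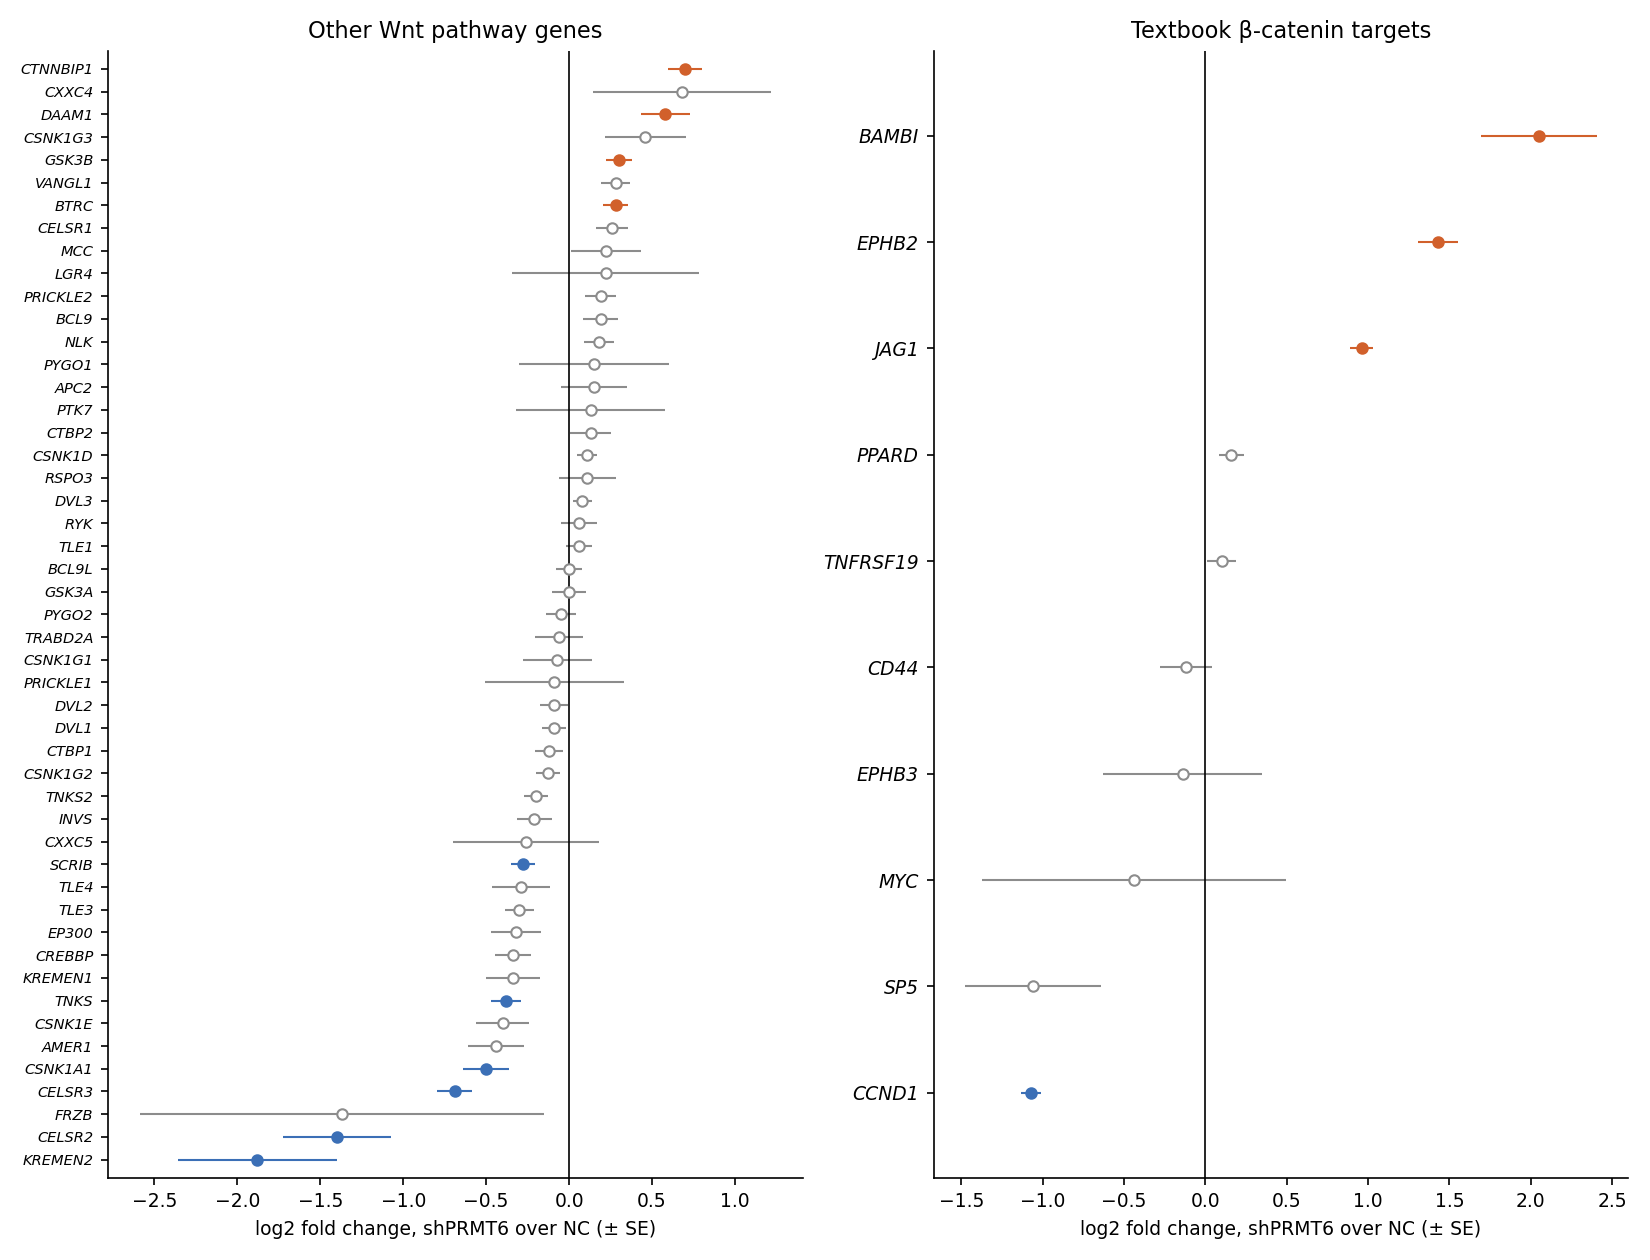
Log2 fold change of shPRMT6 over NC (linear axes) of the 49 tested other pathway genes, left, and the 10 tested textbook targets of β-catenin, right, each with the standard error of the edgeR fit. Filled points passed an adjusted p of 0.05 (orange higher, blue lower in shPRMT6); BAMBI at 2.05 and KREMEN2 at -1.88 lie at the ends.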

How the data were processed

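The data comprise RNA-seq of 3 NC and 3 shPRMT6 cultures of U87, grouped by the labels. The authors deposited whole-number counts for each gene, without normalization, and FPKM values, in which a gene with 0 counts is listed at 0.0001. The submitters' processing notes name GRCh38, HISAT2 and HTSeq 0.13.5, and the use of strand is not given in the sources used here. The kit in the labels is NEBNext Ultra RNA. Totals per library are in the results, and 3 counts correspond to 0.0395 to 0.0532 CPM. The replicate libraries differed beyond sampling noise (chi-square over its degrees of freedom, 48.2 to 78.4), and none was counted as a duplicate.

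Counts were tested with edgeR 4.0.16 in R 4.3.3 (quasi-likelihood test, TMM scaling, filterByExpr by group, Benjamini-Hochberg adjustment over 18106 genes, threshold 0.05). CPM are after TMM scaling. FPKM served to order genes by level. Of 60612 identifiers, 60401 were matched to a symbol. Positions, exon overlaps and 75-base stretches shared between transcripts came from GENCODE 29 on GRCh38, and promoter windows from RefSeq. Alternatives were DESeq2 1.42.0, upper quartile factors or none, a minimum of 10 counts in all libraries or of 1 count in some library, a block for the replicate number, limma 3.58.1 on log2(FPKM + pseudocount) with a pseudocount of 1 or 0.1 for genes averaging 1 FPKM or more and with a pseudocount of 1 for all genes, each library left out in turn and, added after the data were seen, counts divided by 4. The programs were tested on simulated data.

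The Wnt genes and the other lists were chosen with earlier results of these data known. Described in full were Wnt genes past the threshold, the most abundant gene of each role, and CTNNB1, LRP5, LRP6, APC, AXIN2, LEF1, DKK1, WNT5A and WLS. Of the other lists, genes past the threshold with an absolute log2 fold change above 1, and NKD1, NOTUM, LGR5 and SP5, were described. GSK3B, BTRC, CTNNBIP1, DAAM1, CSNK1A1, TNKS, CELSR3, SCRIB, the DVL genes, JAG1, MYC, PRSS23 and the other genes named were chosen after their values were seen. The proteome was not analysed here.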

Additional observations from a re-analysis of the deposited data

How the results depend on the processing

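WNT7B and FZD1 passed the threshold in all 16 alternatives run, LEF1 in 15, WLS in 14, WNT5A in 13, WNT10B in 8 of 16, WNT5B in 7 of 14 and ROR1 in 5 of 14, and none of these 8 changed direction. With DESeq2 there were 2940 higher and 2842 lower genes over all genes, 7 higher and 8 lower Wnt genes, and 11 lower other pathway genes. With limma over all 60612 genes on log2(FPKM + 1) there were 584 higher and 489 lower genes, 1 higher and 1 lower Wnt gene, and 2 higher and 0 lower other pathway genes, and PRMT6 was at -0.47 (adjusted p = 0.158). Restricted to genes averaging 1 FPKM or more, of which 19 were Wnt genes, limma called 2 Wnt genes higher and 5 lower at either pseudocount. FZD7, not called by edgeR, was among the lower genes. Over all 11355 genes in these fits, 1608 were higher and 1555 lower with a pseudocount of 1. With a pseudocount of 0.1, 1590 were higher and 1539 lower. With at least 1 count in any library, 2 of 59 other pathway genes were higher and 2 lower. Over all 29592 genes in that fit, 1374 were higher and 1244 lower.

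With the replicate number as a block in edgeR, 950 genes were higher and 908 lower, 2 Wnt genes were higher, 1 other pathway gene was higher and 1 lower, and PRMT6 was at -0.88 (adjusted p = 0.0803). The correlations over all tested genes gave no sign that the numbers pair the libraries. Deviations of same-numbered libraries correlated at -0.0248, -0.0171 and -0.0301, and no library correlated best with its own number. A pairing that affects few genes would not show in such correlations.

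Leaving out 1 library gave 898 to 1661 higher and 857 to 1522 lower genes, 2 to 4 higher and 2 to 4 lower Wnt genes, 1 to 3 higher and 1 to 3 lower other pathway genes, and -1.0 to -0.73 for PRMT6. It turned the sign of genes that were not called, which ranged from -0.22 to 0.09 for WNT3, -0.04 to 0.27 for FZD5, -0.16 to 0.01 for FZD8, -0.20 to 0.67 for LRP5, -0.51 to 0.02 for DKK1, -0.57 to 1.13 for DKK3, -0.55 to 0.70 for SFRP2, -0.15 to 0.87 for APC, -0.05 to 0.05 for AXIN1 and -0.21 to 0.02 for AXIN2. APC was also at -0.07 with the block and at -0.17 with limma on log2(FPKM + 0.1). AXIN1 was at 0.00 with DESeq2, with at least 1 count in any library and in both limma fits on log2(FPKM + 1), and at 0.01 with limma on log2(FPKM + 0.1). The causes of these shifts were not tested, and the fits differed in their numbers of genes and libraries. The 21 Wnt genes under the filter on low counts had at most 28 counts in any library, where this depth gives little precision.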
